A study of Mus musculus with 161 samples.

Results

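The deposited list of FLAG–CTCF peaks holds 49682 intervals of the mouse genome (mm9), and 57 of them overlap by at least 1 base the windows that hold the 4 Hox clusters. The windows were chr6:52000000-52320000 for Hoxa, chr11:96000000-96300000 for Hoxb, chr15:102700000-102920000 for Hoxc and chr2:74400000-74700000 for Hoxd, and they hold 12, 24, 4 and 17 peaks. Membership depends on position alone. The peaks came from mouse embryonic stem cells of line EN133.10, which carries CTCF–AID, Tir1 and a Rtta3G-TetO-CTCF(Full-length) transgene. In this line endogenous CTCF is fused to an auxin-inducible degron and removed through the Tir1 adaptor, while dox induces a FLAG-tagged full-length CTCF cDNA. Both FLAG ChIP-seq libraries of this group were made after 2 days of auxin and dox, and the list merges them. It is a single clone, so the peaks describe transgenic CTCF in that clone. The paper reports that this transgene is expressed well below tagged endogenous CTCF, which is itself below untagged CTCF. A stretch without a site is therefore one without a peak called in both libraries at this level of CTCF. No control without auxin and dox and no mutant CTCF enters the list. The list gives neither a score nor the value of each library, so error between libraries could not be estimated.

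CTCF is a zinc-finger protein that binds a long, asymmetric DNA motif and stops cohesin as it extrudes loops, so that the position and the orientation of its sites shape chromosome domains. Hox genes encode homeodomain transcription factors that specify position along the body axis. They lie in 4 clusters, are numbered by paralogue group and are all read in the same direction within a cluster, from the posterior genes with high numbers towards the anterior genes with low numbers. In embryonic stem cells the clusters are largely silent and covered by Polycomb marks, and CTCF sites between Hox genes are known to separate active from silent parts once cells differentiate.

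Nearby peaks often described the same place. Of the 57 peaks, 21 (36.8%) shared bases with another peak, against 18.2% of all peaks in the list. Peaks whose midpoints lay within 500 bases were therefore chained into sites, which gave 44 sites in the Hox windows and 43676 in the genome. Each site was scanned with a CTCF matrix of 19 positions learnt from peaks outside the Hox windows, whose most frequent letters read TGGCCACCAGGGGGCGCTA. A match was counted from 9.03 bits (log2 odds) upwards, a score that 5% of nearby windows without recurrent sequence and without a peak reach.

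The sites below stand before paralogous genes of different clusters, which is why their sequences are shown side by side. Each line gives the best match with 5 bases on either side, read 5′ to 3′ along the motif, in mm9, and the capitals mark the 19 bases scored. The second site between Hoxd11 and Hoxd10 scored only 5.39 bits, below the cutoff. Its capitals and strand mark its best-scoring stretch and not a counted match. Sites just before the coding start of a group 5 gene:
Hoxa5, chr6:52154649-52154677, minus strand: cccagTCTCCAGCGGGTGGCGCTCgagtc
Hoxb5, chr11:96164551-96164579, plus strand: gtcaaTCGCCGGGAGGTGGCGCGCtctgc
Hoxc5, chr15:102844125-102844153, plus strand: ccgagTCGGCACCAGGTGTCGCTGtgagc

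Sites between a group 9 and a group 8 gene:
Hoxb9 to Hoxb8, chr11:96140254-96140282, plus strand: cacagTGGCCGCTAGATGGCATCCttgct
Hoxc9 to Hoxc8, chr15:102818016-102818044, plus strand: acaagTGAACGCGAGGTGGCGCTGttgct
Hoxd9 to Hoxd8, chr2:74540444-74540472, plus strand: gcattTGGCCACTAGAGAGCGCTGttgct

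Sites between a group 11 and a group 10 gene:
Hoxa11 to Hoxa10, chr6:52190531-52190559, minus strand: cgcagCCGCCACGAGATGGCGCACtcccg
Hoxc11 to Hoxc10, chr15:102796995-102797023, plus strand: cgaggCAGCTGCTAGGTGGCGCTGttact
Hoxd11 to Hoxd10, first site, chr2:74524529-74524557, plus strand: ttctaCAGCCACACGAGGGCGCGCtcatg
Hoxd11 to Hoxd10, second site, chr2:74529812-74529840, plus strand: acaggCGCTTAGTAGATGTCGCTGttgtc

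For the trio before group 8, all outside protein-coding genes, the whole 200-base peak is shown because its surroundings can be compared with less constraint from coding sequence. Capitals again mark the match:
Hoxb9 to Hoxb8, chr11:96140173-96140372, plus strand: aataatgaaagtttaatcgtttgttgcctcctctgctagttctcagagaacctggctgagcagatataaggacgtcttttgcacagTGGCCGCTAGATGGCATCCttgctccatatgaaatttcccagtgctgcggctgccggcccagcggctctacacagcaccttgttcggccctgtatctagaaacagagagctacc
Hoxc9 to Hoxc8, chr15:102817935-102818134, plus strand: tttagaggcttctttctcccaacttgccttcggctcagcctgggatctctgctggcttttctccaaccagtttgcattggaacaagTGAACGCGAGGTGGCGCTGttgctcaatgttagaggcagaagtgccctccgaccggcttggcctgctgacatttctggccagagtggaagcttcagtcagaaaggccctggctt
Hoxd9 to Hoxd8, chr2:74540363-74540562, plus strand: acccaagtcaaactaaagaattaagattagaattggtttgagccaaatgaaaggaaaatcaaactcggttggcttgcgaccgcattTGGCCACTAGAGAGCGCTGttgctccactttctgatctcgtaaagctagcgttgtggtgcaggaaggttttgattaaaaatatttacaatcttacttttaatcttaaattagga

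The first question was how many peaks the clusters hold for their length. Hoxb had 24 peaks in 300 kb (80.0 per Mb), Hoxd 17 in 300 kb (56.7 per Mb), Hoxa 12 in 320 kb (37.5 per Mb) and Hoxc 4 in 220 kb (18.2 per Mb). Over all chromosomes the density was 19.3 per Mb. The ratio to the genome was thus 4.14 for Hoxb (exact 95% Poisson interval 2.65 to 6.16), 2.93 for Hoxd (1.71 to 4.70), 1.94 for Hoxa (1.00 to 3.39) and 0.941 for Hoxc (0.257 to 2.41). These intervals cover counting error only, and peaks that overlap each other are not independent counts. In these windows Hoxb and Hoxd lay above the genome by more than counting error, Hoxa was at the limit of it, and Hoxc was not distinguishable from the genome. The order depends on where the windows end. With 100 kb added on each side the ratio was 4.04 for Hoxb (2.87 to 5.52), 2.47 for Hoxc (20 peaks, 1.51 to 3.81), 1.76 for Hoxd (1.03 to 2.82) and 1.69 for Hoxa (0.986 to 2.71), so that Hoxc stood above Hoxd and Hoxa, with overlapping intervals. In the widened windows the interval of Hoxb also overlapped that of Hoxc. In the windows as first set it did not, while neighbours in their order overlapped (Hoxb with Hoxd, Hoxd with Hoxa, Hoxa with Hoxc). All windows together gave 50.0 peaks per Mb, 2.59 times the genome (1.96 to 3.36).

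Peaks of the genome are unevenly spread, so a mean density is a weak measure. Windows of the same length were tiled over all chromosomes in 10-kb steps. At least as many peaks as in Hoxb were found in 2.80% of them, as in Hoxd in 7.79%, as in Hoxa in 18.3% and as in Hoxc in 40.9%. Windows of 300 kb held a median of 3 peaks and at most 57. Chromosome 11, which carries Hoxb, had 31.9 peaks per Mb, and on that chromosome alone the ratio of Hoxb was 2.51 and 8.34% of windows held as many peaks. With sites in place of peaks the ratio was 3.73 for Hoxb (2.25 to 5.83), 2.16 for Hoxd (1.08 to 3.86), 1.84 for Hoxa (0.883 to 3.39) and 1.07 for Hoxc (0.292 to 2.74), so that Hoxa was no longer distinguishable from the genome. As many sites as in Hoxd were found in 15.4% of windows.

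**Figure D1:**
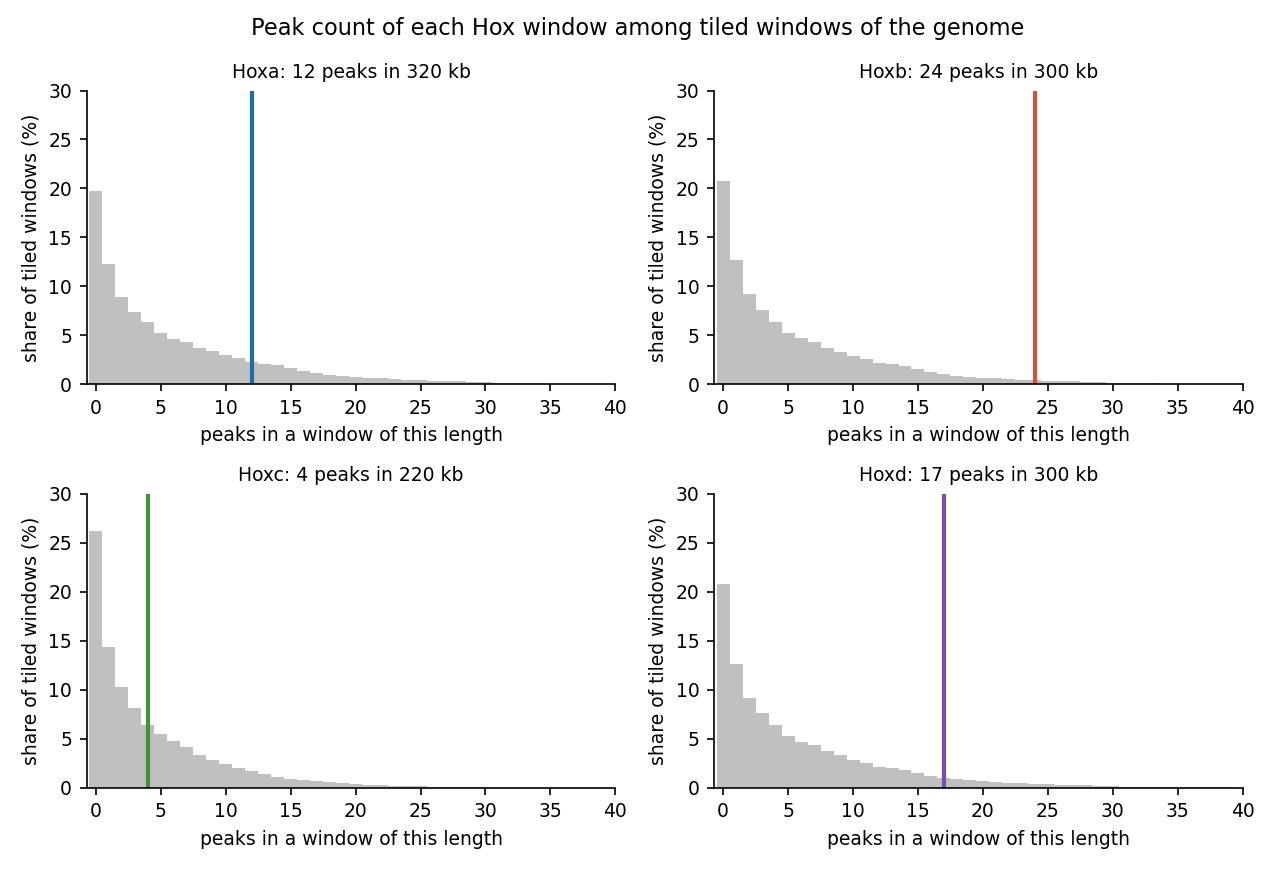
Number of FLAG–CTCF peaks (x axis) in windows tiled over the genome, as a share of windows in percent (y axis, grey bars, cut at 40 peaks), for the length of each Hox window; the coloured line marks the Hox window itself. Hoxb (24 peaks) lies far in the right tail, Hoxd (17) and Hoxa (12) less far, and Hoxc (4) within the bulk.

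The sites of each cluster were then placed against the genes, using the mm9 gene models of GENCODE. The coding span of all 38 listed Hox genes was found, 10 in Hoxa, 10 in Hoxb, 9 in Hoxc and 9 in Hoxd. Distances in kb are given from the start of the window.

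**Figure D2:**
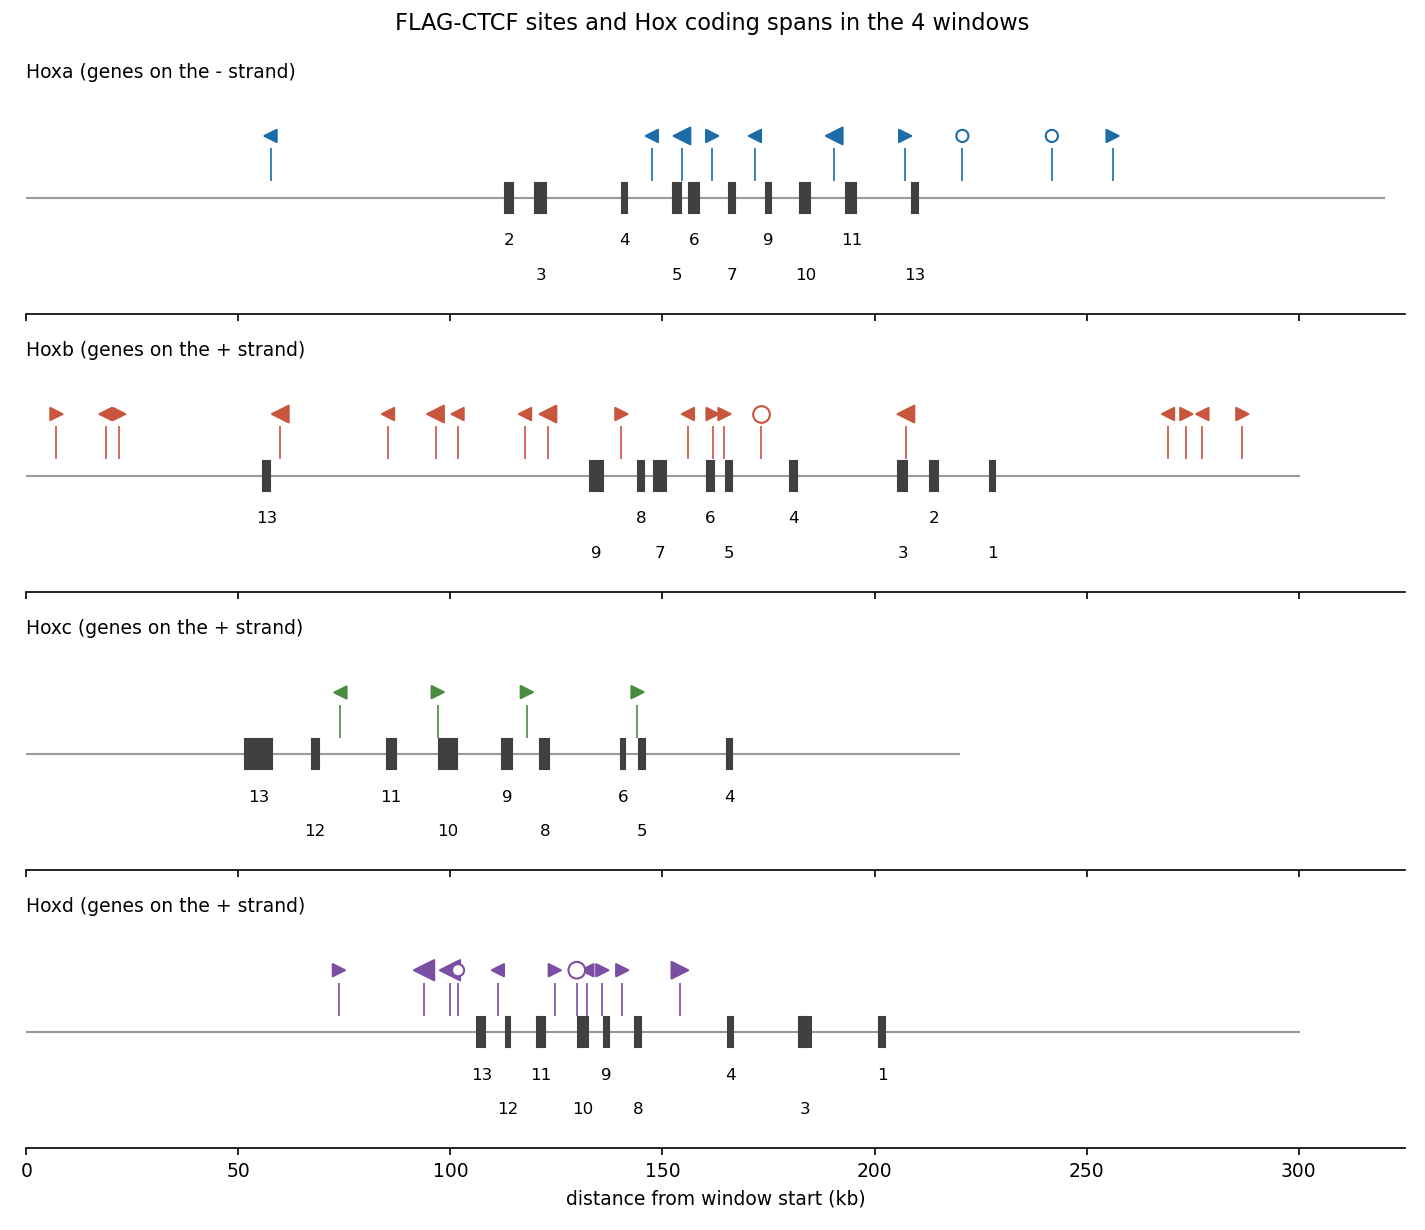
Sites (triangles and circles above the line) and Hox coding spans (dark boxes with the paralogue number) along each window, in kb from the window start. Triangles point in the direction of the motif, open circles have no match at the cutoff, and larger symbols hold more peaks. The stretches between genes of groups 1 to 4 hold no site, and the only site in a coding span of these groups is that in Hoxb3.

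Hoxd had its 11 sites packed between 73.7 and 154.1 kb. The first, at 73.7 kb, stood apart from the rest by 20.1 kb. A triplet of peaks at 93.8 kb lay in a coding exon of Evx2, which encodes a homeodomain protein and is the neighbour of Hoxd13. A second triplet at 99.9 kb and a single peak at 101.8 kb followed between Evx2 and Hoxd13. Within the gene array there was a site between Hoxd13 and Hoxd12 (111.2 kb), a pair between Hoxd11 and Hoxd10 (124.6 and 129.8 kb), a site inside the Hoxd10 coding span (132.3 kb), one just before Hoxd9 (135.8 kb), one between Hoxd9 and Hoxd8 (140.5 kb) and the last between Hoxd8 and Hoxd4 (154.1 kb). A run of 5 sites from 124.6 to 140.5 kb followed each other at no more than 10 kb. No site was found from the last one, at 154.1 kb, to the end of the window, a stretch that holds Hoxd4, Hoxd3 and Hoxd1. The next site lay 248.5 kb beyond that last site. On the posterior side, 329.7 kb separated the first Hoxd site from the nearest site outside the window. Of all distances between successive sites in the genome, 4.23% were as long as the former and 2.90% as long as the latter, so Hoxd sites formed a dense group with long empty flanks.

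Hoxa had 10 sites. A single site stood at 57.6 kb, beyond the anterior genes, and the next at 147.5 kb, so that 89.9 kb with Hoxa2, Hoxa3 and Hoxa4 held none. A gap of that length or longer was common in the genome (14.8% of gaps). The gene array held 6 sites. They were between Hoxa4 and Hoxa5 (147.5 kb), just before Hoxa5 (154.6 kb, 2 peaks), between Hoxa6 and Hoxa7 (161.7 kb), between Hoxa7 and Hoxa9 (171.8 kb), between Hoxa10 and Hoxa11 (190.5 kb, 2 peaks) and between Hoxa11 and Hoxa13 (207.2 kb). The pair before Hoxa5 and the single peak before Hoxa6 were within 1 kb of an annotated start, as were the peak at an alternative start of Hoxa7 and the pair at one of Hoxa10. A further 3 sites (220.7, 241.8 and 256.1 kb) lay beyond Hoxa13, on the side of Evx1, the paralogue of Evx2. The next site after these was 184.4 kb away (6.25% of gaps were as long).

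Hoxb had 19 sites, the most of the 4. Hoxb13 stands far from the other Hoxb genes, and 6 of the sites lay in the 75.3 kb between Hoxb13 and Hoxb9 (59.9, 85.3, 96.5, 101.7, 117.6 and 123.0 kb). Another 3 lay in introns of Ttll6, a tubulin polyglutamylase gene next to the cluster (7.1, 18.7 and 21.9 kb). Between Hoxb9 and Hoxb4 there were 5 sites (140.3, 156.0, 161.8, 164.6 and 173.2 kb), of which the one at 161.8 kb was in the Hoxb6 coding span in an intron and the one at 164.6 kb stood just before Hoxb5. A pair of peaks at 207.4 kb fell in a coding exon of Hoxb3. It was the only site of any cluster between or inside coding spans of groups 1 to 4. Then 61.8 kb with Hoxb2 and Hoxb1 held none, and 4 sites followed beyond Hoxb1 (269.2, 273.5, 277.3 and 286.7 kb). Beyond the window the next sites were close, at 12.1 and 13.6 kb from the outermost Hoxb sites.

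Hoxc had 4 peaks, each its own site and none within 20 kb of another. They lay between Hoxc12 and Hoxc11 (73.9 kb), just before Hoxc10 (97.0 kb), between Hoxc9 and Hoxc8 (118.0 kb) and just before Hoxc5 (144.1 kb). Successive distances were 23.1, 21.0 and 26.1 kb. No site lay outside the gene array within the window, and the nearest beyond it were 158.2 kb away on the posterior and 79.1 kb away on the anterior side of the outermost Hoxc sites.

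Spacing followed from this. The median distance between successive sites was 5.7 kb in Hoxd, 10.3 kb in Hoxb, 14.2 kb in Hoxa and 23.1 kb in Hoxc, beside 19.6 kb in the genome. The cluster values leave out the distances that reach beyond a window, whereas the genome value includes all distances. Another peak lay within 10 kb of 43 of the 57 Hox peaks (75.4%, exact 95% binomial interval 62.2 to 85.9), against 63.1% of all peaks. By cluster these were 16 of 17 in Hoxd, 21 of 24 in Hoxb, 6 of 12 in Hoxa and 0 of 4 in Hoxc. After merging, the share was 59.1% of the 44 sites against 52.7% of all sites, a share close to the background.

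**Figure D3:**
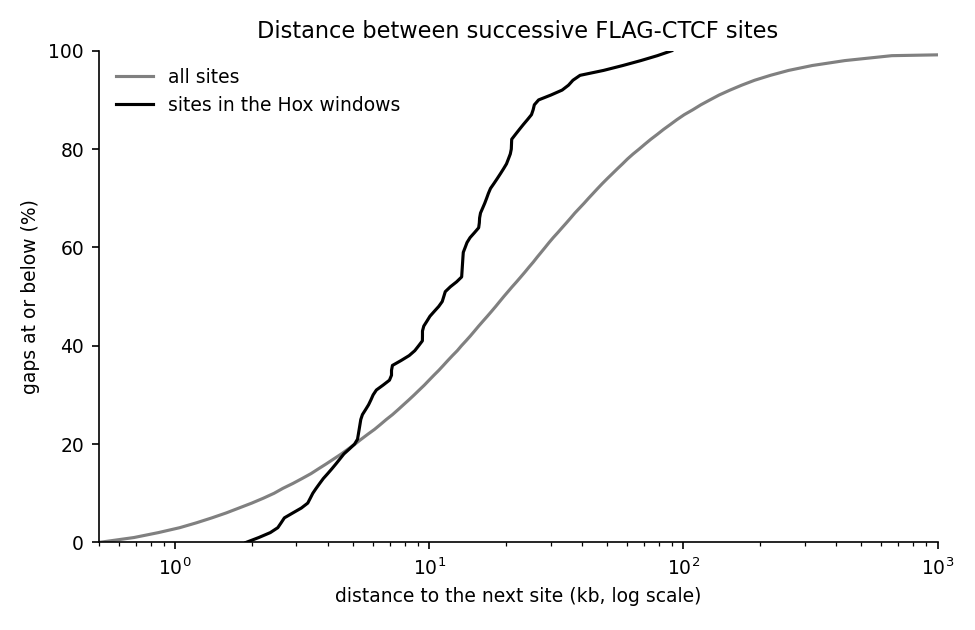
Distance from each site to the next (x axis, kb, log scale) against the percentage of gaps at or below it (y axis), for all sites and for neighbours within the Hox windows. The Hox curve has a median of 11.4 kb against 19.6 kb and ends at 89.9 kb; gaps that reach beyond a window are not counted in it.

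Sites were also unevenly placed along the order of the genes. Each gene array was divided into the part with posterior genes (groups 10 to 13), central genes (groups 5 to 9) and anterior genes (groups 1 to 4), with borders midway between neighbouring coding spans. Over all clusters, the central part held 18 sites in 179.5 kb, or 1.00 per 10 kb (exact 95% Poisson interval 0.594 to 1.58), and the posterior part 10 sites in 153.7 kb, or 0.651 per 10 kb (0.312 to 1.20). The anterior part held 1 site in 147.7 kb, or 0.068 per 10 kb (0.002 to 0.377). The genome had 0.170 sites per 10 kb. The division was chosen after the peaks had been seen, so the intervals describe it and do not test it. Those of the central and anterior parts did not overlap, and those of the posterior and anterior parts overlapped slightly. The count depends on the border, because the sites between group 4 and the next posterior gene lay only 0.33 kb from it in Hoxa, 0.1 kb in Hoxb and 0.99 kb in Hoxd. With that whole stretch counted as anterior, also a choice made after seeing the data, the anterior part held 4 sites in 179.8 kb. This is 0.222 per 10 kb (0.061 to 0.57), again not distinguishable from the genome. The density of the central part was not computed with this border. In Hoxa, Hoxc and Hoxd the anterior part had no site, which in Hoxa and Hoxd allows up to 1.08 and 0.779 per 10 kb. The part of Hoxc is only 10.9 kb long and allows up to 3.38. Central densities were 1.44 in Hoxd, 1.25 in Hoxa, 1.15 in Hoxb and 0.411 in Hoxc. The central part of Hoxb includes the sites at 96.5, 101.7, 117.6 and 123.0 kb, in the long stretch between Hoxb13 and Hoxb9. They count as central only because the border lies midway in that stretch. Outside the gene arrays the windows held 15 sites in 659.1 kb, or 0.228 per 10 kb, whose interval (0.127 to 0.375) contained the genome value.

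**Figure D4:**
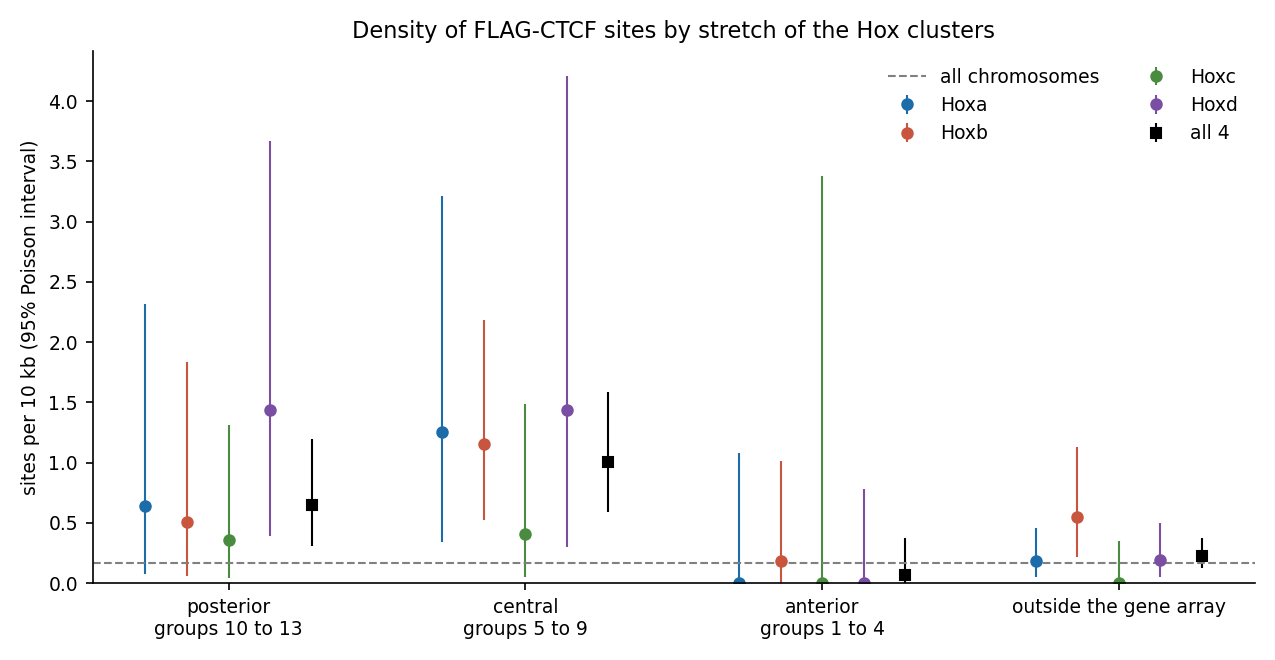
Sites per 10 kb (y axis) in the posterior, central and anterior part of each gene array and outside it, with exact 95% Poisson intervals as bars; black squares pool the 4 clusters and the dashed line is the genome (0.170). The pooled central value (1.00) and posterior value (0.651) lie above the line and the interval of the anterior value (0.068) includes the line.

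Stretches between genes were also counted gene by gene. There are 34 stretches between the coding spans of neighbouring listed Hox genes, and 20 of them held a site. None of the 7 stretches before a gene of groups 1 to 3 did, although together they are 96.0 kb long with a median of 15.4 kb. At the density of the genome 1.63 sites would fall on that length. Of the 27 stretches before genes of groups 4 to 12, with a shorter median of 8.2 kb, 20 held a total of 26 sites, where the genome's density gives 5.26. This division was made after seeing the data, and with group 4 on the anterior side the counts were 3 of 11 before groups 1 to 4 and 17 of 23 before groups 5 to 12. Among the stretches, a site stood before all 3 genes of group 5 (Hoxa5, Hoxb5, Hoxc5), all 3 of group 8 (Hoxb8, Hoxc8, Hoxd8) and all 3 of group 10 that have a neighbour of higher number (Hoxa10, Hoxc10, Hoxd10). Sites also stood before 3 of 4 genes of group 4, 2 of 3 of groups 6 and 11, 2 of 4 of group 9, and 1 of 2 of groups 7 and 12.

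Distances to the coding span were alike between clusters in some groups and not in others. The site before group 5 was 0.26 kb from the coding span in Hoxa, 0.36 kb in Hoxb and 0.39 kb in Hoxc. The site before group 8 was 4.0 kb away in Hoxb, 3.18 kb in Hoxc and 3.14 kb in Hoxd. Before group 10 it was 0.28 kb away in Hoxc and 0.22 kb in Hoxd but 5.66 kb in Hoxa, where an alternative start of Hoxa10 lies 217 bases from the peak. Before group 9 the nearest site was 0.28 kb away in Hoxd and 9.86 kb in Hoxb, and before group 4 it was 5.78 kb away in Hoxa, 6.92 kb in Hoxb and 11.2 kb in Hoxd. These were single distances without an error estimate.

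Their sequences, shown above, were also compared. Over the 29 bases, sites before genes of the same group in different clusters matched at a median of 16 positions (22 pairs, range 10 to 19), and all other pairs of sites from different clusters at a median of 13 (647 pairs, range 6 to 22). Hoxc9 to Hoxc8 and Hoxd9 to Hoxd8 matched at 19, and Hoxc9 to Hoxc8 and Hoxb9 to Hoxb8 at 18. Hoxb9 to Hoxb8 and Hoxd9 to Hoxd8 matched at 17. Over the motif with 90 bases on either side, compared without gaps, the medians were 29.6% and 28.1%. By the medians, the likeness thus did not reach far at fixed spacing. Over that length the pairs before group 8 matched at 25.1% (Hoxc with Hoxd), 37.2% (Hoxb with Hoxc) and 32.7% (Hoxb with Hoxd). Pairs share sites, include sites without a match at the cutoff and were not tested.

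Exons held a larger share of the Hox peaks than of the list. A coding exon held 8 of the 57 (14%, against 4.59% of all peaks), in Evx2 (3), Gm53 (2), Hoxb3 (2) and Hoxd10 (1). A non-coding part of an exon held 9 (15.8%, against 5.17%), all in Hox genes. An intron held 11 (19.3%, against 39.9%) and sequence outside protein-coding genes 29 (50.9%, against 50.4%). By site, with the best-scoring peak standing for its site, a count added after seeing the data, coding exons held 4 of 44 (9.09%, against 3.99% of all sites) and non-coding parts of exons 6 (13.6%, against 4.75%), since 7 of the 8 peaks in coding exons belong to 3 sites. Within 1 kb of a protein-coding start lay 14 peaks (24.6%, against 15%), 6 of them in Hoxa, 3 in Hoxb, 2 in Hoxc and 3 in Hoxd. Hox genes are compact and densely placed, so such shares move with gene density, whose part in the result was not tested. The gene models include long transcripts of Hoxa3 and Hoxd3 that span neighbouring genes, so that 3 peaks between Hoxa4 and Hoxa7 and 2 between Hoxd8 and Hoxd4 count as intronic.

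GC content was higher as well. The median over the 57 peaks was 56.0% (lowest 38.0%, highest 79.5%), against 49.5% over all peaks. The highest values were the triplet in Evx2, from 75.0% to 79.5%. Windows 2 kb from a peak had a median of 47.5% in the Hox clusters and 46.0% elsewhere. Sequence words of 16 bases that recur in at least 5 of the nearby windows, a mark of repeats, were absent from 45 Hox peaks (78.9%), against 62.2% of all peaks.

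By peak, 42 of 57 (73.7%, exact 95% binomial interval 60.3 to 84.5) had a motif match, against 83.3% of all peaks. In windows 2 kb away it was 5 of 110 (4.55%), against 6.18% over the list. By site, 39 of 44 had a match (88.6%, 75.4 to 96.2), against 88.0% of all sites, a share close to the background. Of the 15 peaks without a match, 12 belonged to a pair or triplet. The median of the best scores was below that of all sites in each cluster, with values of 12.8 bits in Hoxa (7.67 to 17.0), 14.5 in Hoxb (7.47 to 19.4), 13.5 in Hoxc (11.7 to 15.1) and 11.6 in Hoxd (5.39 to 17.4), beside 15.5 over all sites. The highest, 19.4 bits, was the site at 85.3 kb between Hoxb13 and Hoxb9. Peaks without recurrent words, a larger part of the Hox peaks (78.9%) than of the list (62.2%), scored lower. Their median over the list was 14.45 bits, against 15.16 for all peaks. No such median was computed by site. Among peaks without recurrent words, 30 of the 45 in the Hox windows had a match (66.7%), against 78.9% over the list. The part of recurrent words in the lower scores was not tested. Sites without a match were those at 220.7 and 241.8 kb beyond Hoxa13, at 173.2 kb between Hoxb5 and Hoxb4, at 101.8 kb next to Hoxd13 and at 129.8 kb before Hoxd10.

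**Figure D5:**
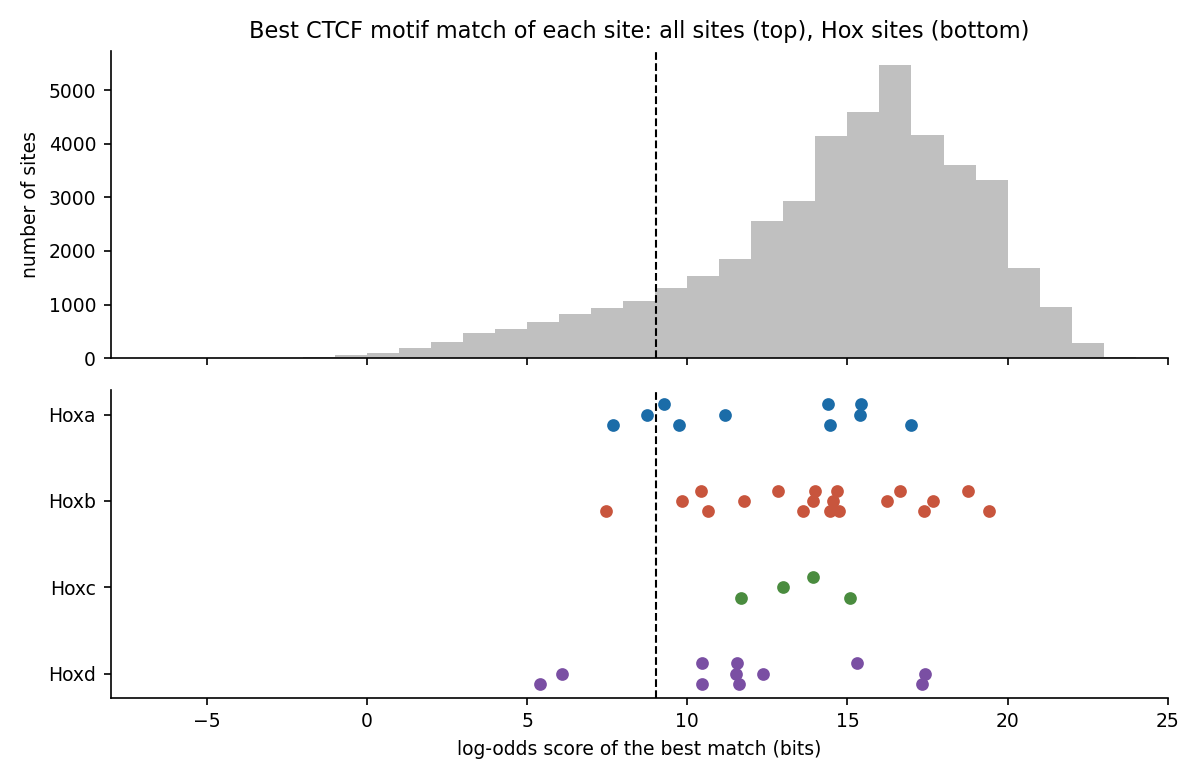
Score in bits of the best CTCF match (x axis) of all sites in the genome (top, number of sites) and of the sites of each Hox cluster (bottom, points, shifted vertically for legibility). The dashed line is the cutoff of 9.03 bits. The Hox sites range from 5.39 to 19.4 bits, with 5 below the line.

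Motif orientation changed along each array. In Hoxd the motifs at 93.8, 99.9 and 111.2 kb, around Evx2 and Hoxd13, were on the minus strand, opposite to the genes, whereas those at 124.6, 135.8, 140.5 and 154.1 kb, from Hoxd11 to Hoxd4, were on the plus strand. The site inside Hoxd10 (132.3 kb) was on the minus strand and the outlying one at 73.7 kb on the plus strand. Hoxc had the first site, before Hoxc11, opposite to the genes and the other 3 along them. Hoxa genes are read from the minus strand. There, the sites before Hoxa4, Hoxa5, Hoxa7 and Hoxa10 pointed along the genes and the sites before Hoxa11 and at 256.1 kb, beyond Hoxa13, opposite to them. The site before Hoxa6 also pointed opposite, with a score of 9.28 bits, just above the cutoff. In Hoxb all 6 sites between Hoxb13 and Hoxb9 pointed opposite to the genes, and towards the anterior genes both directions were found (3 along and 2 opposite). In every cluster the most posterior site of the array thus pointed opposite to the genes, and most of the other matched sites of the array in Hoxa, Hoxc and Hoxd pointed along them. Over the gene arrays 14 sites pointed along the genes, 13 opposite and 2 had no match.

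Between neighbouring sites up to 20 kb apart, both with a match, 23 pairs lay in the Hox windows. Of these, 10 (43.5%) pointed the same way, 4 (17.4%) towards each other and 9 (39.1%) away from each other. In the genome, 53.0%, 20.7% and 26.2% of 17116 such pairs did. With 23 pairs that share sites, the shares were not tested.

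The Hox windows held 350 matches at the cutoff, of which 42 lay in a peak. The cutoff lets 5% of nearby windows without a peak match, so many matches outside peaks were built in. At the median score of all peaks, 15.2 bits, the Hox windows held 20 matches, 12 in a peak and 8 outside any. Such shares were not computed over the genome. Hox promoters (250 bases before to 50 after the start, RefSeq, GRCm38) were searched on both strands for AGNGGGCGC, the core of the CTCF motif. The table held 24 promoters of 22 of the 38 genes. None had it, which allows a share of up to 12.5%, and 2.88% of 32851 promoters did. The shorter AGGNGGC, which overlaps the longer core where its free base is G, was in 7 of 24 (29.2%), against 29.4% of all. In the peaks themselves AGNGGGCGC was found in 5 of 57 (8.77%), against 12.4% of all peaks, and AGGNGGC in 21 of 57 (36.8%), against 37.5%.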

How the data were processed

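Per the study's methods, FLAG ChIP-seq reads were trimmed with fastq-mcf and aligned to mm9 with bowtie2, and reads with a mapping quality of at least 30 were kept with Samtools. The authors called peaks in each library with GEM against matched input, kept those that overlapped between the 2 libraries by at least 1 base and removed blacklisted regions. The deposited list gives coordinates only. All peaks but 1 are 200 bases wide, and 8 rows repeat another. Depth per library is not given in the list, so precision rests on the number of peaks.

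Density was computed over the span from the first to the last peak of 21 chromosomes. Genes came from GENCODE on the same build, each Hox gene placed by its shortest coding span of at least 900 bases. The CTCF matrix started from AGNGGGCGC and was refined in 6 rounds on peaks outside the Hox windows without recurrent words (30882 peaks, of which 20540 entered the last round), with base frequencies mixed with 5% background. It was tested on simulated data. Python 3.11.15, numpy 2.4.6, pandas 2.3.3 and scipy 1.17.1 were used. Members and gene lists were chosen with earlier results of these data known, and the division of arrays, the paralogue comparison and the matrix were chosen after the peaks had been seen. All listed peaks in the windows were described, with the Hox genes, the nearest genes and flanking genes from a fixed list. The 5C files cover a region of chromosome X and were not used here.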

Additional observations from a re-analysis of the deposited data

How the results depend on the processing

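Over 60 alternatives, 52 stayed within the counting error of the reported value or within 1.5 times a share, and 8 did not. On chromosome 11 alone the ratio of Hoxb was 2.51 and the share of tiled windows 8.34%. With the window trimmed to its first and last peak, the ratio was 2.94 in Hoxc and 10.9 in Hoxd, by construction of the shorter window. With windows widened by 100 kb on each side it was 2.47 in Hoxc, 1.76 in Hoxd and 1.69 in Hoxa, which placed Hoxc above both. By site the lower limit of Hoxa fell to 0.883. Merging peaks within 500 or 2000 bases gave Hoxd 15.4% and 15.8% of tiled windows. Of the 44 sites, 12 (27.3%) lay in the most posterior of 3 equal parts of the window, 26 in the middle one and 6 in the anterior one. With 2 parts, 29 (65.9%) lay in the posterior one and 15 in the anterior one. The posterior part of 2 is larger by construction, and it also takes in a portion of the middle one, where most sites lay. Density over whole chromosome lengths and the matrix without a floor on base frequencies were added after seeing the data. So were the other border of the anterior part and coding exons counted by site. All stayed within the error of the reported value. The matrix without a floor still widened the difference in match share from -9.58 to -16.9 percentage points. It matched 36 of 57 Hox peaks (63.2%), against 80.1% of all peaks, and no interval was computed for it. No paired analysis was possible because the list merges both libraries without a column for either, and for the same reason neither library could be left out. The list has no score, so strong and weak binding cannot be told apart.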

Other observations

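Sites with the most similar surroundings did not lie at paralogous positions. Over the motif with 90 bases on either side, the site at 277.3 kb in Hoxb and the site at 73.7 kb in Hoxd matched at 48.2% of positions, and the site at 57.6 kb in Hoxa matched those at 21.9 and 273.5 kb in Hoxb at 45.7% and 43.7%. All of these lay outside the gene arrays. Words that recur in nearby windows, a mark of repeats, were present in 12 of the 57 Hox peaks. Whether repeats account for the likeness of these sites was not tested.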
